A study of Homo sapiens with 18 samples.

Results

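Here 6 of the 18 arrays of the series are described: the 3 arrays of cells kept for 48 h with ethanol and the 3 of cells kept for 48 h with DMSO, chosen by their sample titles. Both are solvents used to carry test compounds, and both groups are solvent controls. The cells were HK-2, a human cell line made from proximal tubular epithelium of the kidney and immortalized, so that it keeps growing in culture. They were seeded 24 h earlier and treated near 90% confluency. The remaining arrays hold medium alone at 24 h and 48 h, and both solvents at 24 h, again with 3 biological replicates a group. All groups shared the same line and culture medium, and no dose of ethanol or DMSO is given in the sources used here. RNA was measured on Affymetrix HG-U133 Plus 2.0 arrays as log2 expression, on which a difference of 1 is a doubling. Of all genes, 10832 were above a log2 value of 4 on at least 3 of the 18 arrays and were tested.

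Many of the genes described below belong to the stress response of the endoplasmic reticulum (ER). Secreted and membrane proteins fold in the ER with the help of chaperones such as HSPA5. When unfolded protein builds up, the sensors ERN1, EIF2AK3 and ATF6 are activated. They raise chaperones through XBP1 and ATF6, and, through ATF4, genes of amino acid supply and the stress regulator DDIT3. The ATF4 branch also answers to amino acid shortage and other stresses and is then called the integrated stress response. Tubular cells of the kidney carry out much transport and secretion, and this response is known from many forms of toxic injury there.

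In all, 1934 of the 10832 genes (17.9%) passed a Benjamini-Hochberg adjusted p of 0.05 in limma for ethanol against DMSO at 48 h. Of these, 926 (8.55%) were higher with ethanol and 1008 (9.31%) were lower. A change of at least 2-fold was seen in 460 of the genes that passed, 254 higher and 206 lower. The median difference over all genes tested was -0.05. All 3 ethanol arrays lay above all 3 DMSO arrays for 1476 genes (13.6%) and below them for 1883 genes (17.4%). The precision is limited by 3 arrays a group: the 95% interval of the difference lay within 1 log2 unit on either side of 0 for 7987 genes (73.7%).

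The count of genes depends on how the spread is estimated. Ethanol arrays varied more among themselves than DMSO arrays: the median standard deviation (SD) per gene was 0.263 with ethanol and 0.171 with DMSO at 48 h, and 7617 genes (70.3%) had the larger SD with ethanol. The limma fit above pools the spread over the 6 groups. A fit to the 6 arrays alone called 174 genes, 119 higher and 55 lower, and 170 of them were among the 1934. A fit with 1 weight per group, shared by all genes (0.427 for ethanol and 1.26 for DMSO at 48 h), called 1091. Each gene's spread was still pooled over the groups. Below, this fit is named the fit with a spread per group. With the replicate number as a block, 3143 genes passed on 18 arrays and 20 on the 6 arrays alone. Same-numbered DMSO and ethanol arrays at 48 h deviated together only for replicate 3 (correlations of 0.07, -0.01 and 0.41), whereas same-numbered DMSO and medium arrays at 48 h did so for every replicate (0.67, 0.68 and 0.72). Of the 125 genes that passed among those chosen for description, 90 kept their call in each of the 6 fits that left out 1 array, 43 in the 6-array fit and 102 with a spread per group. Leaving out DMSO replicate 1 gave 1192 genes and leaving out DMSO replicate 3 gave 1098.

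On the first principal component of the 6 arrays, with 52.9% of the variance, ethanol replicates 1, 2 and 3 lay at 0.35, 26.8 and 52.7. The DMSO arrays lay between -30.76 and -23.35, and ethanol replicate 1 was the ethanol array nearest to them. The array of ethanol replicate 3 stood apart on the second component, with 25.8% of the variance. There it lay at 26.7 against -27.7 and -26.5 for ethanol replicates 1 and 2. DMSO replicate 3 lay on the same side, at 22.7, against 6.78 and -1.96 for DMSO replicates 1 and 2. Over the 18 arrays, ethanol replicate 3 lay at -52.3 at 24 h and -61.6 at 48 h on the second component and all other arrays between -21.2 and 20.6. Without both ethanol arrays numbered 3, at 24 h and 48 h, 2300 genes passed, and without ethanol replicate 1 at 48 h 2450 passed. Array medians were 2.86 to 2.95, and 39.7% to 40.3% of probe sets were above 4. A control probe set for the 5′ end of the large ribosomal RNA read 8.92 ± 0.28 (SD, n = 3) with DMSO and 10.16 ± 0.17 with ethanol, and its part in the gene differences was not tested. The actin 3′ to 5′ difference, a measure of RNA integrity, was 0.85 ± 0.21 with DMSO and 0.89 ± 0.23 with ethanol.

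**Figure D1:**
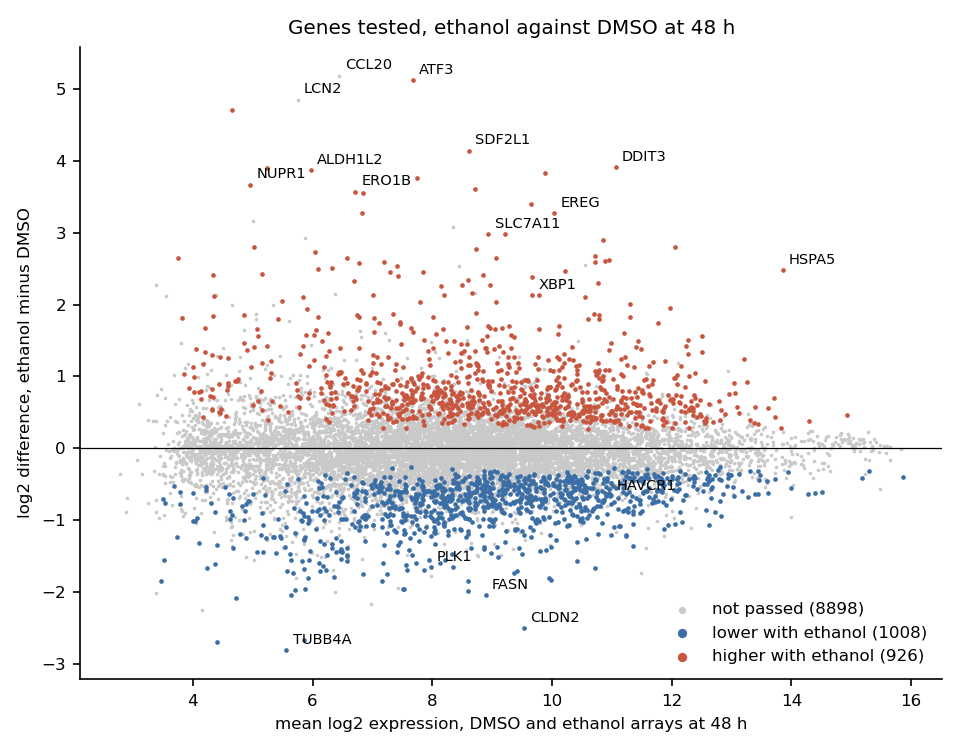
Each point is 1 of the 10832 genes, with its mean log2 expression over the 6 arrays at 48 h on the x axis and the log2 difference of ethanol minus DMSO on the y axis. Red points (926) passed higher with ethanol, blue points (1008) passed lower and grey points did not pass. ATF3, at 5.13, is the highest point that passed, and CCL20, at 5.18, and LCN2, at 4.85, did not pass.

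The identity of the cells was checked by markers. Of the defining brush border genes, ANPEP, MME, GGT1, LRP2, CUBN and AQP1 stayed at or under 4 on every array at 48 h, whereas the epithelial genes KRT8, KRT18, CDH6 and PAX8 were above it. None of 7 endothelial and none of 6 leukocyte markers on the array was above 4. The fibroblast markers DCN, LUM, COL1A1 and COL3A1 were above 4 on at least 1 of the 6 arrays, DCN at up to 12.2. So were the podocyte markers PTPRO (up to 13.3), SYNPO and PODXL, the distal markers SCNN1A and AQP3, and the keratinocyte marker KRT10. The summed level of the 10 proximal tubule markers on the array was 62.8 to 64.4 with DMSO and 61.6 to 63.5 with ethanol. That of the 8 fibroblast markers was 41.4 to 42.4 with DMSO and 39.9 to 42.1 with ethanol. That of the 5 podocyte markers was 29.7 to 30.1 with DMSO and 28.5 to 29.2 with ethanol, and that of the 7 markers of distal tubule and collecting duct was 29.8 to 30.7 and 26.4 to 30.6. The 5 keratinocyte markers summed to 18.5 to 18.7 with DMSO and 19.2 to 19.3 with ethanol. Of single markers, LUM and PTPRO fell and KRT10 rose. In bulk RNA, fewer cells of a kind and less RNA per cell cannot be told apart.

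ER chaperones and their regulators rose with ethanol. Of 32 tested members of this list, 24 rose and 8 did not pass, where 8.55% of all genes rose, and the list's median difference was 1.23 against -0.05 over all genes. HSPA5, the main chaperone of the ER lumen, read 12.48, 12.50 and 12.88 with DMSO and 14.72, 15.20 and 15.38 with ethanol. The groups lay well apart, and the 3 medium arrays, at 12.55 to 12.88, lay with the DMSO arrays. HSPA5 rose by 2.48 ± 0.18 (SE, 5.59-fold, adjusted p = 1.18e-06 in limma). SDF2L1, a partner of ER chaperones, read 6.42, 6.34 and 6.85 with DMSO and 9.41, 11.23 and 11.39 with ethanol. Ethanol replicate 1 was the lowest of its group but still above every DMSO array. SDF2L1 rose by 4.14 ± 0.44 (17.6-fold, adjusted p = 5.69e-05).

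The co-chaperones and the disposal machinery moved with them. HERPUD1, which helps carry misfolded proteins out of the ER for degradation, read 10.61, 10.81 and 10.54 with DMSO and 13.10, 13.61 and 13.65 with ethanol, a rise of 2.79 ± 0.18. DNAJB9, a co-chaperone of HSPA5, read 9.48, 9.62 and 9.09 with DMSO and 11.74, 12.56 and 12.58 with ethanol, a rise of 2.90 ± 0.23. Neither gene showed any overlap between the groups. ERO1B, an oxidase that drives disulfide bonds, read 5.20, 4.77 and 4.80 with DMSO and 7.24, 9.08 and 9.16 with ethanol, a rise of 3.57 ± 0.43. CRELD2, MANF, HYOU1, DNAJC3, PDIA4 and SEL1L rose by 1.83 to 2.68. In HYOU1, CRELD2 and PDIA4, as in SDF2L1, ethanol replicate 1 was lower than the other 2 ethanol arrays: for HYOU1 it read 10.22 against 12.25 and 11.88.

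Among the sensors and the factors they act on, ERN1 and XBP1 had the largest rises. ERN1, the sensor that splices XBP1 RNA, read 7.39, 7.00 and 6.31 with DMSO and 9.78, 10.74 and 11.01 with ethanol, a rise of 3.61 ± 0.46. XBP1, the transcription factor made active by that splicing, read 8.57, 8.62 and 8.61 with DMSO and 10.66, 10.96 and 10.57 with ethanol. Its arrays were tight in both groups, and it rose by 2.13 ± 0.11 (4.37-fold, adjusted p = 1.51e-07). The array values do not separate spliced from unspliced XBP1. EIF2AK3, the sensor that phosphorylates eIF2 alpha, rose by 0.95, and ATF6 differed by 0.63 without passing. CALR, P4HB, OS9, ERO1A, TXNDC11, DERL1 and DERL3 did not pass either, with differences of 0.04 to 0.56. The 6-array fit kept 9 of the 24 rises and the fit with a spread per group kept 22.

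**Figure D2:**
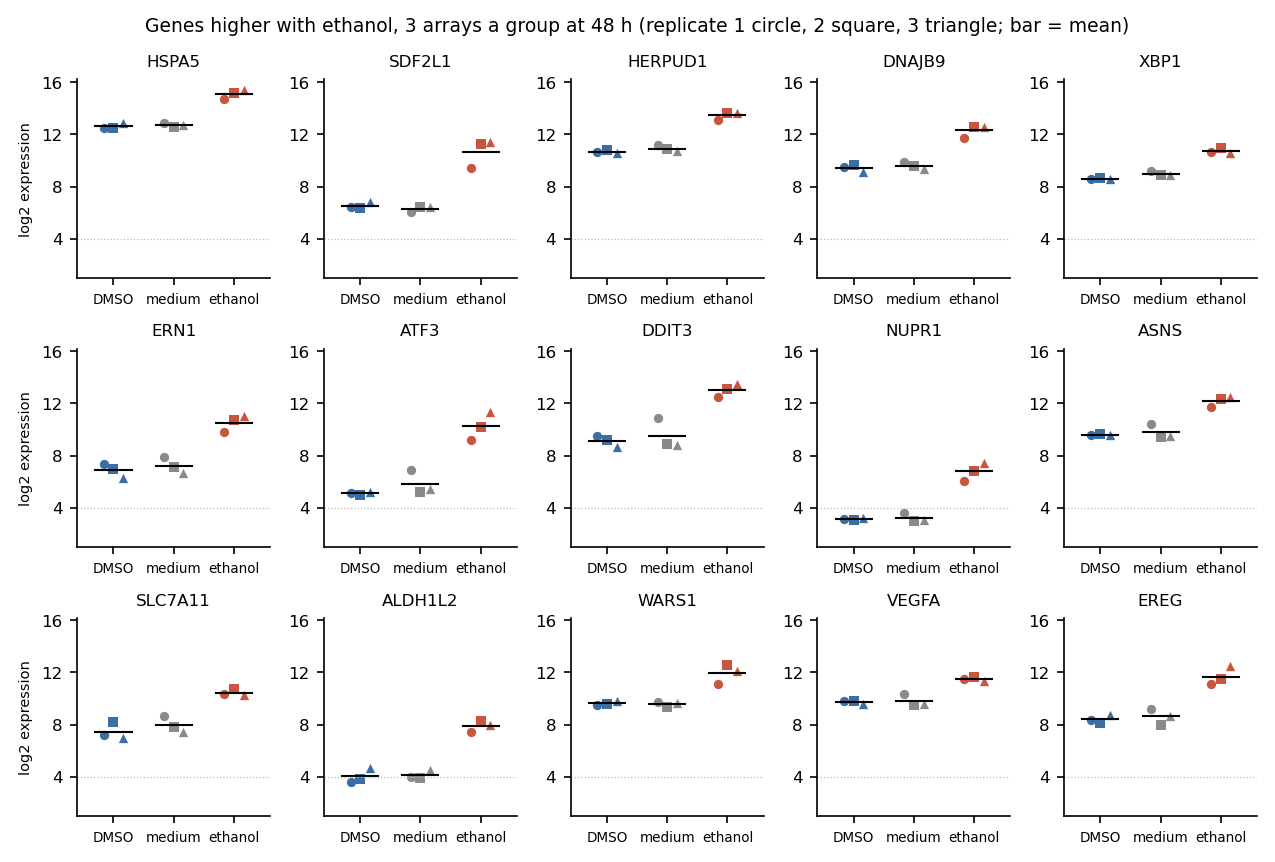
Log2 expression on the 3 arrays of each group at 48 h for 15 genes that were higher with ethanol (DMSO blue, medium grey, ethanol red; circle, square and triangle are replicates 1, 2 and 3; the bar is the mean; the dotted line is the log2 value of 4 used in the filter). Ethanol arrays lie above all DMSO arrays in each panel, and medium replicate 1 lies above the other medium arrays for ATF3 and DDIT3.

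The promoters of genes that rose can be read for the ER stress element. ERSE, which ATF6 and NF-Y bind, was searched as CCAAT followed after any 9 bases by CCACG. ERSE-II was searched as ATTGG followed after any 1 base by CCACG, and both were searched on either strand. Promoters ran from 250 bases before to 50 after the start of the gene in RefSeq (GRCh38.p14), and 8978 of the 10832 genes tested had one. Of these genes 8.71% rose. These 100-base stretches are shown because the rises of the printed genes are among those described here. They are written 5′ to 3′ on the strand of the gene, and capitals mark the fixed letters of the motif.
HSPA5 (chr9:125241364-125241463, minus strand): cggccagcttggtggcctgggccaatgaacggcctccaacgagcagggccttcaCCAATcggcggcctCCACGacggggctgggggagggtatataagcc
XBP1 (chr22:28800570-28800669, minus strand): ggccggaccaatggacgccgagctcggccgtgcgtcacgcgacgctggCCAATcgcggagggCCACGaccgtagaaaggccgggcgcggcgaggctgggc
CRELD2 (chr22:49918514-49918613, plus strand): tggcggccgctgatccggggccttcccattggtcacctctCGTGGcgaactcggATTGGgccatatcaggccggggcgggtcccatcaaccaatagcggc
SDF2L1 (chr22:21642072-21642171, plus strand): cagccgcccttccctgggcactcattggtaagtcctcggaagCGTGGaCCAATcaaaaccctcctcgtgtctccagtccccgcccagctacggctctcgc
HERPUD1 (chr16:56931952-56932051, plus strand): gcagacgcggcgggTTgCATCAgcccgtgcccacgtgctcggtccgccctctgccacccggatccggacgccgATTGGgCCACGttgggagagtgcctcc

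HSPA5 and XBP1 hold ERSE on the strand of the gene and CRELD2 on the other strand. SDF2L1 holds ERSE-II on the other strand and HERPUD1 on its own. In HERPUD1 the first capitals mark a match to TGATGNAA, described with the amino acid genes. ERSE is rare: 22 of 27305 promoters in the table (0.0806%) and 13 of the 8978 genes tested (0.145%) held it. Of those 13 genes, 11 rose (84.6%), namely ERO1B, CRELD2, FICD, HSPA5, XBP1, SERP1, HSP90B1, ALG12, TRIM5, EIF2A and CANX. CALR did not pass (0.51 ± 0.29), and TMEM120A fell by 0.74. The genes are not all separate cases: the promoters of CRELD2 and ALG12 share 295 bases, and those of SERP1 and EIF2A share 210.

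ERSE-II was matched in 11 tested genes, of which SDF2L1, HERPUD1 and HYOU1 rose, GYS1 fell and 7 did not pass. The XBP1 element UPRE, searched as TGACGTGG on both strands, was matched in 0.795% of all promoters, in 0.969% of tested genes and in 2.43% of the genes that rose. In HYOU1 the UPRE and ERSE-II matches overlap. DNAJB9, MANF and ERN1 rose with no match to either ERSE form in this window. A match is a description of letters and neither a site nor a cause, and no match says only that these letters are not in this window.

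Genes of the integrated stress response rose as a group: 14 of 17 tested members rose (82.4%) and 3 did not pass, where 8.55% of all genes rose. The list's median difference was 1.59, against -0.05 over all genes. ATF3, a transcription factor induced by many stresses, read 5.16, 4.95 and 5.22 with DMSO and 9.22, 10.17 and 11.31 with ethanol. No array overlapped, and the ethanol arrays were spread over a wider range. ATF3 rose by 5.13 ± 0.71 (34.9-fold, adjusted p = 0.00035 in limma). DDIT3, also called CHOP, which can lead stressed cells into apoptosis, read 9.48, 9.22 and 8.62 with DMSO and 12.51, 13.07 and 13.48 with ethanol, a rise of 3.91 ± 0.47. For both genes medium replicate 1 (6.87 for ATF3 and 10.90 for DDIT3) was above the other medium arrays.

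NUPR1, a small stress-induced chromatin protein, read 3.12, 3.07 and 3.18 with DMSO and 6.08, 6.84 and 7.45 with ethanol. The DMSO values are near background, so the rise of 3.67 ± 0.24 is inexact in size. ATF4 itself, which is regulated mainly at translation, rose less, by 0.90 ± 0.15, from a level of 12.50 to 12.71 to one of 13.20 to 13.86. Its target TRIB3, a pseudokinase, rose by 1.56, CHAC1, which breaks down glutathione, by 1.79, and SESN2, a leucine sensor, by 1.51. CHAC1 lost its call in the 6-array fit and with a spread per group (adjusted p = 0.121 and 0.137 in limma). That call was also lost without ethanol replicate 3, at 48 h alone or at both times (adjusted p = 0.141 and 0.129 in limma). PPP1R15A, which reverses eIF2 alpha phosphorylation, rose by 1.59. GDF15, a secreted stress cytokine, read 11.13, 10.58 and 11.26 with DMSO and 11.75, 13.02 and 14.07 with ethanol, a rise of 1.95 ± 0.42. VLDLR, DDIT4 and ATF5 had differences of 0.07, -0.02 and -0.28 and did not pass. The 6-array fit kept 7 of the 14 rises, and the fit with a spread per group kept 12.

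Amino acid supply rose alongside. Of 10 tested amino acid transporters, 6 rose, with a list median of 0.80. SLC7A11, which exchanges cystine for glutamate, read 7.18, 8.19 and 6.98 with DMSO and 10.34, 10.69 and 10.26 with ethanol, a rise of 2.98 ± 0.39. Its heavy chain SLC3A2 rose by 2.39, the leucine transporter SLC7A5 by 2.25, the neutral transporter SLC1A4 by 1.45 and the arginine transporter SLC7A1 by 1.09. In the 6-array fit 4 transporters passed.

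Of 13 enzymes of serine, one-carbon and amino acid synthesis, 7 rose (53.8%, against 8.55% of all genes). MTHFD1 fell by 0.32, a call lost in 5 of the 6 fits that left out 1 array (all but that without ethanol replicate 1). That call was also lost in the 6-array fit and with a spread per group. ASNS, which makes asparagine, is counted with the integrated stress response: it read 9.58, 9.63 and 9.56 with DMSO and 11.73, 12.35 and 12.50 with ethanol, a rise of 2.60 ± 0.28. ALDH1L2, the mitochondrial enzyme that oxidizes formyl-tetrahydrofolate, read 3.60, 3.82 and 4.70 with DMSO and 7.42 to 8.30 with ethanol. That rise of 3.86 ± 0.28 starts near background. CTH, which makes cysteine from cystathionine, rose by 2.98, MTHFD2 of the mitochondrial folate pathway by 1.51 and PSPH of serine synthesis by 1.31. PSAT1, of the same pathway, differed by 0.20 and did not pass. The 6-array fit kept 3 of the 7 rises.

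Of 17 aminoacyl-tRNA synthetases tested, which load amino acids onto tRNA, 10 rose (58.8%, against 8.55% of all genes) and 7 did not pass. The list's median was 0.56. WARS1, for tryptophan, read 9.49, 9.58 and 9.78 with DMSO and 11.08, 12.53 and 12.13 with ethanol, a rise of 2.30 ± 0.27. AARS1, CARS1 and GARS1, for alanine, cysteine and glycine, rose by 1.85, 1.42 and 1.38. HARS1, RARS1 and VARS1, for histidine, arginine and valine, had differences of -0.07, -0.02 and -0.23. The 6-array fit kept 4 of the 10.

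The C/EBP-ATF response element CARE, to which ATF4 binds with C/EBP partners, was searched as TGATGNAA on both strands. It is shown for 3 genes that rose, with the fixed letters in capitals.
ATF3 (chr1:212565167-212565266, plus strand): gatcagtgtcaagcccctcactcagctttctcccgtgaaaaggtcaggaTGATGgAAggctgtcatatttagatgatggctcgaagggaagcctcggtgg
ASNS (chr7:97872429-97872528, minus strand): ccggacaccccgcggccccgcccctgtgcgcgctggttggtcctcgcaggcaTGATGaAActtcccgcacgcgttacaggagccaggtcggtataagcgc
AARS1 (chr16:70289647-70289746, minus strand): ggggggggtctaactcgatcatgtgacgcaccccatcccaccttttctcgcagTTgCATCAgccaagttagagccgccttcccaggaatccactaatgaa
ATF3 and ASNS hold it on the strand of the gene and AARS1 on the other. It was matched in 3.67% of all promoters, in 1.64% of the genes tested, in 4.6% of genes that rose (36 of 782) and in 1.54% of genes that fell. Among the 9 tRNA synthetases that rose and had a promoter, 5 held it: AARS1, CARS1, IARS1, NARS1 and TARS1. None of the 5 synthetases that did not pass held it. Of 13 genes of the integrated stress response that rose and had a promoter, ASNS, ATF3 and CHAC1 held it. The call of CHAC1 was lost in the alternative fits given above.

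Genes for moving protein into and out of the ER rose by smaller amounts. Of 24 tested members of the COPII and COPI coats and cargo receptors, which carry protein between ER and Golgi, 9 rose (37.5%). Over all genes 8.55% rose, and the list's median was 0.29. SEC24D, a cargo-binding subunit of COPII, read 8.08, 8.16 and 8.16 with DMSO and 9.44, 9.87 and 10.10 with ethanol, a rise of 1.67 ± 0.15. SEC24A rose by 0.98 and SAR1B, the GTPase that starts COPII coats, by 0.85. Of 23 members of the translocon and of N-glycan transfer, 10 rose (43.5%, against 8.55% of all genes). SPCS3, a signal peptidase subunit, fell by 0.58. Its call was lost without any DMSO array or ethanol replicate 3, in the 6-array fit and with a spread per group. SEC61A1, the pore, rose by 1.21 ± 0.27 and ALG2, a mannosyltransferase, by 0.88 ± 0.11. The 6-array fit kept 3 of the 9 coat genes and 1 of the 10 translocon genes, and leaving out DMSO replicate 1, DMSO replicate 3 or ethanol replicate 2 left 5, 4 and 4 of the coat genes.

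Other genes that rose most lie outside these lists. INHBE, a subunit of activin E, read 8.17, 8.55 and 7.19 with DMSO and 11.62, 11.96 and 11.81 with ethanol, a rise of 3.83 ± 0.50. EREG, a ligand of the EGF receptor, read 8.33, 8.10 and 8.76 with DMSO and 11.08, 11.46 and 12.48 with ethanol, a rise of 3.27 ± 0.68. BEX2, LRRC49, LURAP1L and ITPKA, an inositol trisphosphate kinase, rose by 3.28 to 3.76. SCG5, a chaperone of prohormone convertase, and the locus of MIR146A rose from near background, by 4.71 ± 1.34 and 3.90 ± 1.07. The arrays do not measure mature miRNA. Each lost its call in 4 of the 6 fits that left out 1 array, MIR146A without DMSO replicate 1 or 3 or ethanol replicate 2 or 3, and SCG5 without any DMSO array or ethanol replicate 3.

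VEGFA, the main growth factor of blood vessels, read 9.77, 9.80 and 9.54 with DMSO and 11.50, 11.68 and 11.32 with ethanol, a rise of 1.79 ± 0.20. Of 13 genes of the hypoxia list 4 rose (30.8%), where 8.55% of all genes rose. They were VEGFA, NDRG1, ANKRD37 and LOX, and LOX lost its call without DMSO replicate 1 or 3 or ethanol replicate 3. The hypoxia genes BNIP3, P4HA1, KDM3A and EGLN3 had differences of -0.01, 0.00, 0.04 and -0.90 and did not pass. GADD45A rose by 1.71 ± 0.30 and was the only one of 15 p53 targets and CDK inhibitors to pass (6.7%, against 17.9% of all genes). Of 20 lysosome and autophagy genes 5 rose (25.0%, against 8.55% of all genes), among them WIPI1 (1.55), MAP1LC3B (1.16) and SQSTM1 (1.02). SQSTM1 lost its call with the mean of its probe sets (0.77, adjusted p = 0.0661 in limma). The autophagy genes ATG5, ATG7 and BECN1 differed by 0.20 to 0.28 and did not pass. NPC2, a cholesterol carrier of the lysosome, fell by 0.40, a call lost without any 1 array other than ethanol replicate 1, with quantile scaling, in the 6-array fit and with a spread per group. The count of 5 was 0 in the 6-array fit, 3 with a spread per group, and 3 without any 1 array other than ethanol replicate 1.

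Genes of the dividing cell fell. Of 30 mitosis genes, 17 fell and 13 did not pass, where 9.31% of all genes fell, with a median of -0.67 and every member below 0. PLK1, a kinase of mitotic entry and spindle assembly, read 9.02, 8.19 and 9.19 with DMSO and 6.82, 7.18 and 7.45 with ethanol, a fall of 1.65 ± 0.30 (adjusted p = 0.00223 in limma). No array overlapped. MKI67, the usual mark of cycling cells, read 10.88, 10.85 and 11.35 with DMSO and 9.99, 9.48 and 10.54 with ethanol, and fell by 1.02 ± 0.24, a call lost without DMSO replicate 3. AURKA and CCNA2, a spindle kinase and an S and G2 cyclin, fell by 1.09 and 1.04. Leaving out DMSO replicate 3 left 10 of the 17, and the 6-array fit none.

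Of 30 genes of DNA replication, 20 fell (66.7%, against 9.31% of all genes) and 10 did not pass, with a median of -0.67. MCM4, a subunit of the replicative helicase, read 10.49, 10.37 and 10.84 with DMSO and 9.38, 9.09 and 9.64 with ethanol, a fall of 1.20 ± 0.18. UHRF1, which carries DNA methylation through replication, read 10.54, 10.28 and 10.73 with DMSO and 9.94, 8.19 and 9.13 with ethanol, a fall of 1.43 ± 0.31. GINS4 of the helicase complex fell by 1.95, MCM10 by 1.57 and the polymerase POLE by 1.41. CDC6, which loads the helicase, had a difference of 0.80 and did not pass. MCM10 lost its call without DMSO replicate 3 or ethanol replicate 2. Those same fits gave counts of 12 and 13, and the 6-array fit gave 1. The cell cycle element CHR, searched as TTTGAA on both strands, was matched in 15.4% of all promoters and in 9.55% of tested genes. It was matched in 9 of the 13 mitosis genes that fell and in 8 of the 12 that did not pass.

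**Figure D3:**
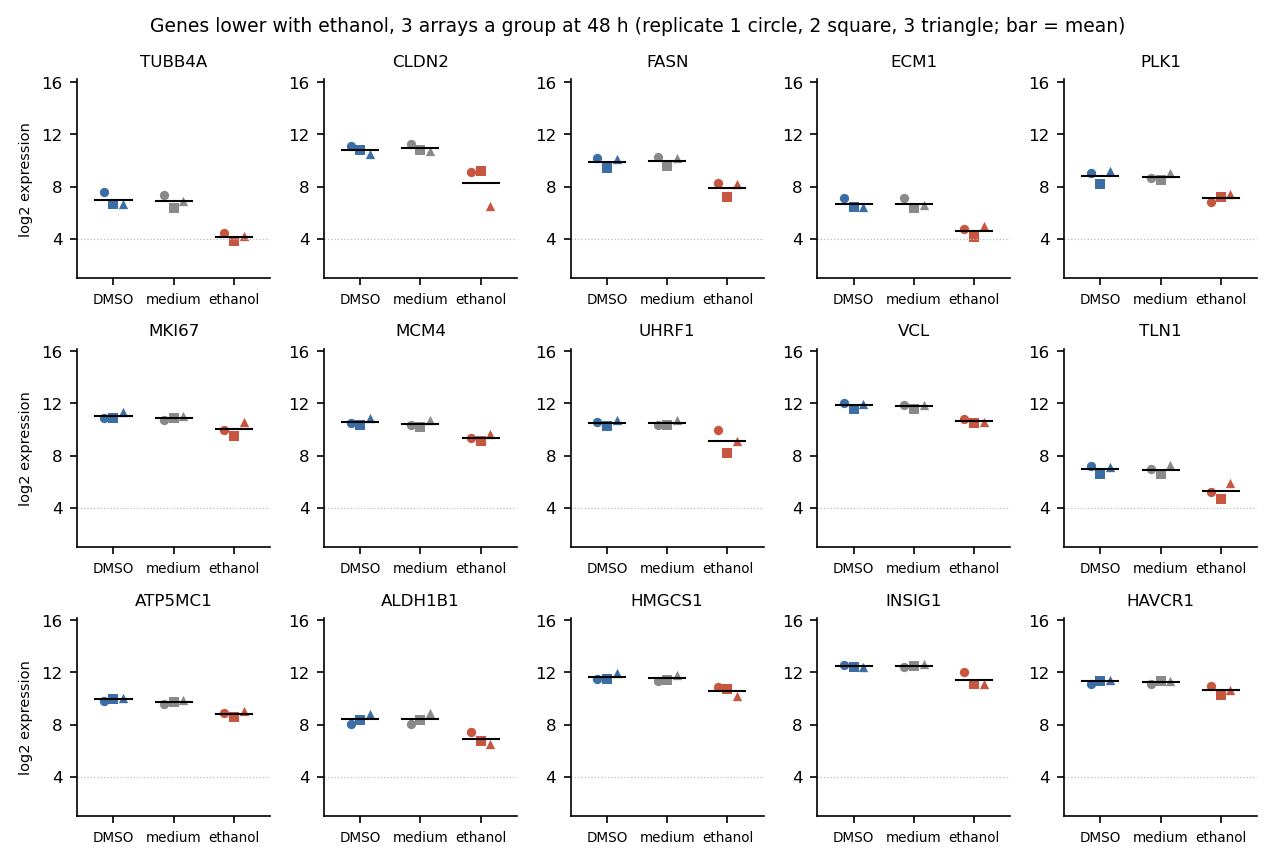
Log2 expression on the 3 arrays of each group at 48 h for 15 genes that passed lower with ethanol (colours, shapes and bars as in the plot of rising genes). Ethanol arrays lie below all DMSO arrays in each panel, and for CLDN2 ethanol replicate 3, at 6.52, lies below the other ethanol arrays.

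Genes of fatty acid synthesis fell. Of 10 genes of fatty acid synthesis, 6 fell, with a median of -0.63. FASN, the fatty acid synthase, read 10.22, 9.44 and 10.07 with DMSO and 8.25, 7.20 and 8.17 with ethanol, a fall of 2.03 ± 0.29 (4.10-fold, adjusted p = 0.000446 in limma). SREBF1, its transcriptional regulator, fell by 0.97, ACSS2, an enzyme that turns acetate into acetyl-CoA, by 0.85 and the elongase ELOVL6 by 0.82. ELOVL6 passed although ethanol replicate 1, at 9.91, lay within the DMSO range. Leaving out any 1 of 4 arrays (DMSO replicates 1 and 3, ethanol replicates 2 and 3) left 3 of the 6, and the 6-array fit left 1. Of 16 cholesterol genes HMGCS1, INSIG1 and IDI1 fell (18.8%, against 9.31% of all genes). STARD4, a sterol carrier, rose by 0.95, and the other 12 did not pass. HMGCS1, at the start of the pathway, read 11.52, 11.50 and 11.94 with DMSO and 10.85, 10.69 and 10.18 with ethanol, a fall of 1.08 ± 0.20. INSIG1, a sterol sensor of the ER, fell by 1.06 ± 0.21. In the 6-array fit STARD4 passed and none of the 3 falls did, and IDI1 lost its call without DMSO replicate 3 and with a spread per group. The count of 3 falls was 5 without ethanol replicate 3 and 5 with the replicate block on 18 arrays.

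Of 21 glycolysis genes 6 fell (28.6%), where 9.31% of all genes fell. Among them were PFKFB4, by 1.44, PKM, by 0.94, and TPI1, by 0.68, while GAPDH differed by 0.03. Of 21 genes of the TCA cycle and respiratory chain 8 fell (38.1%). ATP5MC1, a ring subunit of ATP synthase, read 9.83, 9.94 and 10.06 with DMSO and 8.85, 8.57 and 9.05 with ethanol, a fall of 1.12 ± 0.14. Citrate synthase, CS, fell by 0.71 and OGDH by 0.86, and neither passed in the 6-array fit. OGDH also lost its call without DMSO replicate 3, with array weights, with a spread per group and with the mean of its probe sets. The glycolysis count was 10 without ethanol replicate 3 and 0 in the 6-array fit. With the replicate block on 18 arrays, 13 glycolysis genes fell and 1 rose, and 13 genes of the TCA cycle and respiratory chain fell. The TCA and respiratory count was 4 without DMSO replicate 3, 5 with a spread per group and 1 in the 6-array fit.

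Genes that handle ethanol itself were mostly low or did not pass. Of 18 genes of alcohol and aldehyde metabolism 6 were tested and 1 passed (16.7%, against 17.9% of all genes). ALDH2, the main acetaldehyde dehydrogenase, was among those that did not reach the filter. ALDH1B1, a mitochondrial aldehyde dehydrogenase, read 8.03, 8.33 and 8.83 with DMSO and 7.43, 6.77 and 6.53 with ethanol, a fall of 1.49 ± 0.28. ADH5, CAT and ALDH9A1 differed by -0.19, -0.19 and -0.29 and did not pass. Of 13 genes of xenobiotic metabolism and export 2 passed (15.4%), where 17.9% of all genes passed. The exporter ABCC1 rose by 0.84 and the epoxide hydrolase EPHX1 fell by 0.88. EPHX1 lost its call without DMSO replicate 1, DMSO replicate 3 or ethanol replicate 1 and with a spread per group, and neither gene passed in the 6-array fit (adjusted p = 0.121 for EPHX1 and 0.0722 for ABCC1).

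Among actin genes and SRF targets 6 of 18 fell (33.3%, against 9.31% of all genes), with a median of -0.47. VCL, vinculin, which links actin to adhesions, read 12.02, 11.54 and 11.95 with DMSO and 10.81, 10.52 and 10.55 with ethanol, a fall of 1.21 ± 0.15. TLN1, talin, which activates integrins, fell by 1.70 ± 0.34 and the myosin MYH9 by 1.01. The count was 3 without DMSO replicate 1, 3 without DMSO replicate 3, 2 with a spread per group and 1 in the 6-array fit. Of 18 cell junction genes tested 3 passed (16.7%), where 17.9% of all genes passed. CLDN2, the cation pore of proximal tubule junctions, read 11.08, 10.79 and 10.47 with DMSO and 9.14, 9.18 and 6.52 with ethanol. It fell by 2.50 ± 0.66, by 1.62 without ethanol replicate 3 (adjusted p = 0.0614), and by 1.62 with both ethanol arrays numbered 3 left out (adjusted p = 0.000931). Its call was also lost without DMSO replicate 1 (-2.35, adjusted p = 0.0643). OCLN and CTNNB1, of tight and adherens junctions, rose by 0.85 and 0.37. OCLN lost its call without DMSO replicate 1, DMSO replicate 3 or ethanol replicate 2, and CTNNB1 in 5 of the 6 fits that left out 1 array.

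The largest fall among genes that passed was that of TUBB4A, a beta tubulin, which read 7.56, 6.64 and 6.69 with DMSO and 4.44, 3.85 and 4.19 with ethanol. It fell by 2.81 ± 0.40 (7.00-fold, adjusted p = 0.000366 in limma), to a level near background. OLFML2A, CNNM1, VSIG10L, ECM1, LRRN4 and C1QL1 fell by 1.97 to 2.69. In OLFML2A ethanol replicate 1 read 4.74, against 2.21 and 2.20 on the other ethanol arrays.

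Markers of tubular injury gave few calls: of 15 tested, HAVCR1 and TIMP1 fell and 13 did not pass, where 9.31% of all genes fell. TIMP1 lost its call without DMSO replicate 1, DMSO replicate 3 or ethanol replicate 3, and in the 6-array fit neither passed (adjusted p = 0.126 for HAVCR1 and 0.176 for TIMP1). HAVCR1, also called KIM-1, the usual marker of proximal tubule injury, read 11.11, 11.37 and 11.42 with DMSO and 10.97, 10.29 and 10.64 with ethanol, a fall of 0.67 ± 0.15 (adjusted p = 0.00761). CLU, SPP1 and VIM differed by -0.03, 0.00 and -0.04. For SPP1, osteopontin, the result depends on the probe set: with the mean of its probe sets it rose by 1.01 ± 0.16 (adjusted p = 0.0007 in limma), so its probe sets disagree. LCN2, the marker NGAL, read 3.28, 3.27 and 3.42 with DMSO and 3.30, 8.02 and 13.20 with ethanol. One ethanol array lay within the DMSO range and another was the highest of all, so that a difference of 4.85 ± 2.16 did not pass (adjusted p = 0.135).

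The cytokine genes were just as uneven among the ethanol arrays. Of 18 tested NF-kB and cytokine genes, TNFAIP3 and VCAM1 rose (11.1%), where 8.55% of all genes rose. In 7 of the 18 all ethanol arrays lay above all DMSO arrays, a larger share than the 13.6% of all genes that did so. CCL20, a chemokine, read 2.28, 4.54 and 4.72 with DMSO and 5.95, 9.59 and 11.54 with ethanol, a difference of 5.18 ± 1.81 (adjusted p = 0.061). CXCL2 read 8.96, 9.21 and 9.67 with DMSO and 10.14, 12.07 and 13.29 with ethanol (adjusted p = 0.0675). In both, ethanol replicate 1 was the lowest and replicate 3 the highest of the group. Without ethanol replicate 1 the count of 2 was 8, without any other 1 array it was 1 (TNFAIP3 lost its call), it was 8 with the replicate block on 18 arrays, and it was 6 with both ethanol arrays numbered 3 left out. IL6 read 1.67, 3.47 and 5.15 with DMSO and 4.07, 5.98 and 9.70 with ethanol, so the groups overlapped.

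In 4 of the 6 genes with the largest SD among the ethanol arrays, 1 array stood away from the other 2. MMP1, a collagenase, read 2.93, 3.25 and 11.67, and TNFAIP6 read 2.89, 2.87 and 8.40. FGFR2 read 9.68, 9.36 and 4.54, and CDH1, E-cadherin, 8.40, 9.04 and 3.77. In all 4 it was replicate 3. The other 2 were LCN2 and IL6. Among DMSO arrays the largest SDs were those of ADAMTS5, IL6, CCNA1, DDIT4L, TXNIP and PLAT, where TXNIP read 6.00, 6.09 and 8.79 and PLAT 4.58, 4.59 and 7.22.

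**Figure D4:**
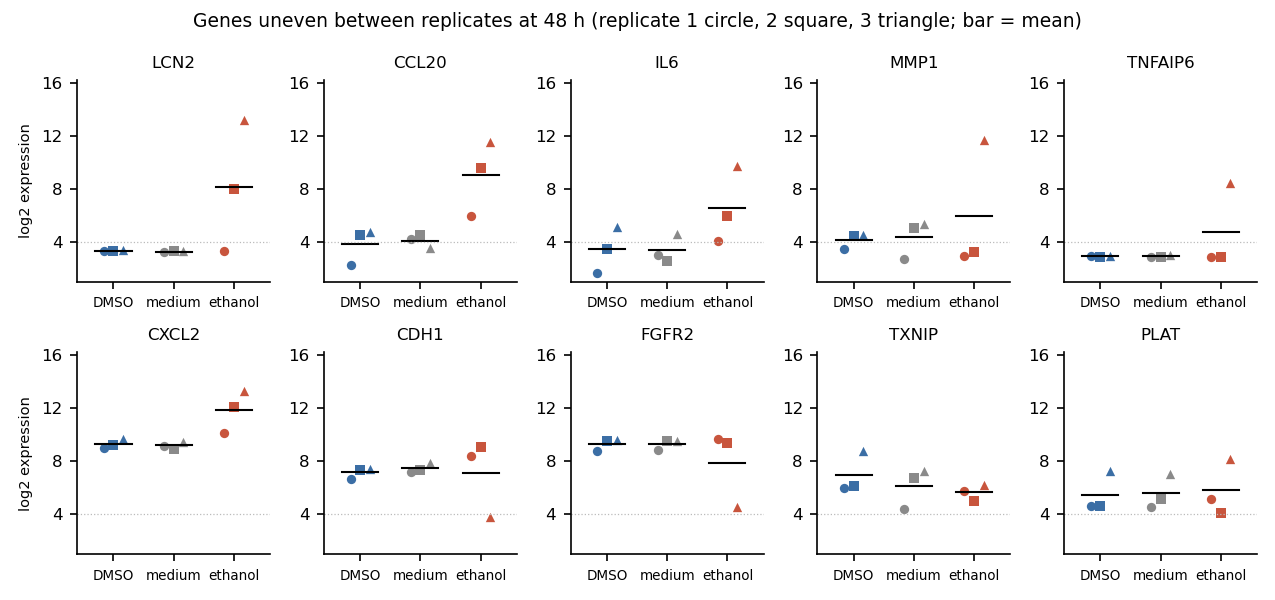
Log2 expression on the 3 arrays of each group at 48 h for 10 genes that were uneven between replicates (colours, shapes and bars as in the plot of rising genes). Ethanol replicate 3 is the highest array for LCN2, MMP1 and TNFAIP6 and the lowest for CDH1 and FGFR2.

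Other stress programmes gave counts near or under the share of all genes that passed (17.9%). Of 15 NRF2 targets and glutathione genes none passed in limma, 1 was higher and 3 lower at an unadjusted p under 0.05, and HMOX1, heme oxygenase, differed by 0.36 ± 0.26. Of 13 cytosolic heat shock genes HSPE1 and HSPB1 fell by 0.65 and 0.55, and HSPE1 lost its call without DMSO replicate 2 or 3 or ethanol replicate 2 or 3. Of 9 metallothionein and zinc genes only the regulator MTF1 fell, by 0.61, whereas 7 were lower with both ethanol arrays numbered 3 left out. MTF1 lost its call without DMSO replicate 2, DMSO replicate 3 or ethanol replicate 3, in the 6-array fit, with a spread per group and with the mean of its probe sets (-0.30, adjusted p = 0.159). CDKN1A, the p21 inhibitor, differed by 0.28 ± 0.27. With the replicate block on 18 arrays, 5 heat shock genes were lower and 3 were lower in each of the lists of NRF2 targets, p53 targets, fatty acid oxidation, alcohol and aldehyde metabolism, xenobiotic metabolism, and EGF ligands. With the block 4 TGF-beta and matrix genes were lower and 2 higher, 3 complement genes were higher, 2 immediate early genes were higher and 2 lower, and 2 genes were lower in each of the translocon, junction and glucocorticoid lists. It gave 2 higher genes of the cholesterol list, 1 higher gene of DNA replication and 1 higher ribosomal protein gene. Of 14 cytosolic ribosomal protein genes none passed in limma, 2 were higher at an unadjusted p under 0.05, and their differences ran from -0.05 to 0.22.

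Fewer genes passed at 24 h, 67 in all (0.619%). Whether the difference changed from 24 h to 48 h was tested in 1 contrast over the 12 arrays, and 197 genes (1.82%) passed, 169 upward (1.56%) and 28 downward (0.258%). Of the 197, 192 also passed at 48 h in the direction of the change. The change contains the 48 h difference itself, from the same arrays, so this overlap is partly built in and is not separate support. Of the 32 ER chaperone genes 16 changed upward, with a median difference of 0.01 at 24 h and 1.23 at 48 h. HSPA5 differed by -0.28 at 24 h and 2.48 at 48 h, a change of 2.77 ± 0.25 (adjusted p = 6.65e-05 in limma). SLC7A11 differed by -1.51 at 24 h and 2.98 at 48 h, a change of 4.50 ± 0.55. XBP1 went from 0.36 to 2.13. ERN1, with 0.96 at 24 h, did not pass in this contrast (adjusted p = 0.0518).

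Of the 10 largest downward changes, INSIG1 and HMGCS1 differed by 0.71 and 0.34 at 24 h, neither passing there, and fell at 48 h. LMNB1, a lamin of the nuclear envelope, and MCM4 went from 0.01 and -0.10 to -1.15 and -1.20. TAGLN, an actin-binding protein, moved the other way: it fell by 3.18 at 24 h and differed by -0.16 at 48 h, where it read 2.90 to 3.27 on all 6 arrays, near background. The count of 197 was 58 in a fit of the 12 arrays alone, 130 with a spread per group, 110 without DMSO 48 h replicate 1, 99 without replicate 3 and 722 without ethanol 48 h replicate 1. With the replicate block it was 526 on 18 arrays and 98 on the 12 arrays alone.

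**Figure D5:**
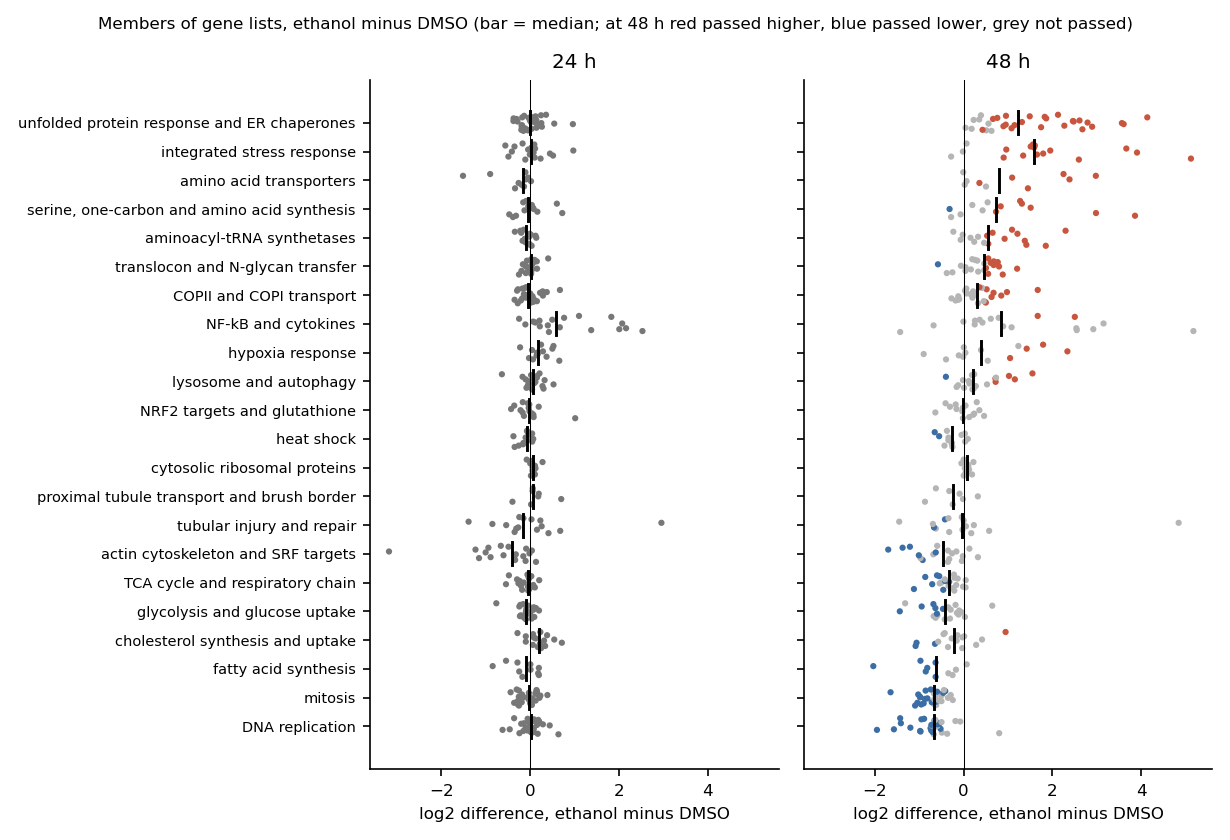
Log2 difference of ethanol minus DMSO for the tested members of 22 gene lists at 24 h (left) and 48 h (right), 1 point a gene, with the median as a bar. At 48 h red points passed higher, blue passed lower and grey did not pass, and the ER chaperone median moves from 0.01 at 24 h to 1.23 at 48 h.

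The medium arrays at 48 h show on which side each solvent lies. These comparisons share arrays with the one above, so the values are given only side by side. Ethanol against medium gave 1654 genes. DMSO against medium gave 0 in limma, and 53 had an unadjusted p under 0.05. With the replicate number as a block, added because same-numbered DMSO and medium arrays deviate together, DMSO against medium gave 0 in limma on 18 arrays (104 at an unadjusted p under 0.05) and 0 on the 6 arrays of that comparison (632). Ethanol against medium gave 2811 with the block on 18 arrays, and 114 without and 0 with it on its own 6 arrays. HSPA5 differed from medium by 2.38 with ethanol and -0.10 with DMSO, DDIT3 by 3.49 and -0.42, and ATF3 by 4.40 and -0.72. FASN differed from medium by -2.11 with ethanol and -0.07 with DMSO, and PLK1 by -1.56 and 0.09.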

How the data were processed

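RNA of HK-2 cells was hybridised to Affymetrix HG-U133 Plus 2.0 arrays. The authors deposited 1 log2 expression value per probe set and array, made with GCRMA per the submitters' processing notes. The sources used here give neither its version nor whether all arrays were normalized together. That the scale is log2 was read from the values. The series text and the labels give the early time differently, and the labels (24 h) were used.

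Of 54675 probe sets, 41091 had 1 gene in GEO's platform annotation, updated through RefSeq, 1801 had several and 11721 none. Probe sets above 4 on at least 3 of 18 arrays were kept (19730), with the probe set of highest mean for each gene (10832 genes). limma 3.58.1 in R 4.3.3 fitted 6 group means to 18 arrays (12 residual degrees of freedom), with two-sided tests, Benjamini-Hochberg adjustment over 10832 genes and a threshold of 0.05. The computation was tested on simulated data. The replicates are labelled as biological, and nothing more on separate cultures was used.

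The members, the 38 gene lists and the tests were chosen with earlier results of these data known. Genes were named by a fixed rule: the 15 largest rises and falls that passed with groups apart, up to 4 passed members of each list in each direction and up to 4 more as values, a set of stress and injury readouts, the 6 genes of largest spread in each group, and the 10 largest changes over time in each direction. Other members named to account for a list, or for a motif match, were chosen after their values were seen. Deviations of same-numbered arrays from their group means correlated over 0.1 for all 3 replicates in 11 of 15 pairs of groups. The exceptions were the 4 pairs of ethanol at 48 h with a group other than ethanol at 24 h, DMSO at 48 h among them (0.07, -0.01 and 0.41). The fit without the block was kept for all comparisons, and blocked counts stand beside those they move. Alternatives covered scaling, filters, probe set choice, the arrays fitted, the spread, array weights, a replicate block and leaving out each array. Promoter sequences came from RefSeq (GRCh38.p14). Protein sequences were not analysed here. Figures were drawn with matplotlib 3.10.9.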

Additional observations from a re-analysis of the deposited data

Results flagged for a closer look

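The difference between ethanol and DMSO changed from 24 h to 48 h for 197 genes in the limma test of that change, which is the contrast the values here come from. Among the genes named above, the change was upward in ATF3 (4.89), ITPKA (4.59), SLC7A11 (4.50), SDF2L1 (4.32), ALDH1L2 (4.18), DDIT3 (3.83), NUPR1 (3.56), LURAP1L (3.41), ERO1B (3.32), LRRC49 (3.27) and INHBE (3.22). It was smaller in BEX2 (2.90), HSPA5 (2.77), ASNS (2.71), DNAJB9 (2.63), WARS1 (2.52), SLC3A2 (2.48) and CTH (2.26). Among synthetases and other supply genes it was 1.82 for AARS1, 1.79 for SLC1A4, 1.55 for GARS1, 1.45 for MTHFD2 and 1.42 for CARS1. XBP1 changed by 1.77, VEGFA by 1.55, MAP1LC3B by 1.26, ALG2 by 1.14, SEC24D by 1.00 and the translocation factor SEC63 by 0.90.

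The change was downward in INSIG1 (-1.77), SESTD1 (-1.74), the cell cycle repressor E2F8 (-1.72), ALDH1B1 (-1.63), HMGCS1 (-1.42), ARLN (-1.17), LMNB1 (-1.16), MLLT11 (-1.11), ATP5MC1 (-1.10) and MCM4 (-1.10). It was smaller in the glycolytic enzyme PGAM1 (-0.77) and in SDHA of the respiratory chain (-0.57).

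Signals outside the genes tested also differed at 48 h. The control probe set for the 5′ end of the large ribosomal RNA was higher with ethanol by 1.24, a difference that was not tested. It read 9.71 with medium at 48 h, and at 24 h 7.94 with DMSO and 10.58 with ethanol. Another control probe set of this RNA read 9.55 with DMSO and 10.08 with ethanol at 48 h. Of 2858 probe sets above the filter without a single gene, 335 (11.7%) passed, 169 higher and 166 lower.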

How the results depend on the processing

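None of the 125 genes that passed among those chosen for description changed direction under any alternative run. Direction was not compared gene by gene for the others. The 1934 genes that passed became 174 when only the 6 arrays compared were fitted, 1091 with a spread per group (chosen after seeing the data) and, with the replicate number as a block, 3143 on 18 arrays and 20 on the arrays compared alone. Leaving out 1 array gave 1098 to 2450 genes. The 197 genes whose difference changed over time became 58 on the arrays compared alone, 130 with a spread per group, 537 with array weights and, with the replicate block, 526 on 18 arrays and 98 on the arrays compared alone. Leaving out 1 array gave 99 to 722. Same-numbered arrays deviate together in most pairs of groups but not between DMSO and ethanol at 48 h, so the pairing of these 2 groups is not settled and neither fit was preferred after seeing its calls. Median centring moved the share of higher genes among those that passed over time from 85.8% to 79.0%, and at 48 h from 47.9% to 41.7%. Scaling by quantiles gave 51.6% at 48 h. Filters and the choice of probe set kept both counts within 1.5 times. Genes with a group mean under 4, such as SCG5, NUPR1 and OLFML2A, are near background and their size is inexact. Protein sequence ends, planned as a description, were not run.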

Other observations

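Of 14 interferon genes tested, IRF1, IRF9 and HLA-B rose and BST2, which tethers virus particles, fell by 0.70, so that 28.6% passed against 17.9% of all genes. HLA-B lost its call without DMSO replicate 2, ethanol replicate 2 or ethanol replicate 3. IRF1, a transcription factor of the response, read 6.07, 5.73 and 6.05 with DMSO and 6.81, 7.93 and 9.51 with ethanol, a rise of 2.13 ± 0.45 with no overlap (adjusted p = 0.0049 in limma). Of 20 proteasome subunits 3 fell, where 9.31% of all genes fell, PSMD1 most, by 0.69 ± 0.14. The proteasome count was 7 with the replicate block on 18 arrays, 1 without DMSO replicate 3, 5 without ethanol replicate 3 and 6 with both ethanol arrays numbered 3 left out, and the interferon count of 3 was 5 without ethanol replicate 1. In the 6-array fit no member of either list passed. Of 13 genes often used as references for expression, SDHA, POLR2A and YWHAZ fell by 0.55, 0.54 and 0.37. That count was 5 with the replicate block on 18 arrays, 1 without DMSO replicate 1, without DMSO replicate 3 or with a spread per group, and 0 in the 6-array fit.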
